A study of Caenorhabditis elegans with 4 samples.

Results

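The right arm of chromosome III of Caenorhabditis elegans was examined for binding of LIN-61 in L3 larvae. Its LIN-61 peaks were taken by position alone, as the peaks of chromosome III whose centre lies beyond base 9189133 on genome build WS220, which leaves an arm of 4.59 Mb that ends with the chromosome at 13783700. By that rule 1134 of 13662 peaks (8.30%) in the combined list of the series belonged to the arm. The same rule placed 960 of 11742 nuclear peaks there in ChIP replicate 1 (8.18%) and 804 of 9436 in ChIP replicate 2 (8.52%).

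The worms were of strain N2 and of wild-type genotype, a mixed population of males and hermaphrodites taken at the L3 larval stage, and this holds for all 4 libraries. Chromatin was immunoprecipitated with LIN-61 SDQ3520, an affinity-purified rabbit polyclonal antibody, to give 2 ChIP libraries, and 2 libraries were made of input DNA. The values below come from the authors' MACS peak lists, 1 for each ChIP library and 1 for the series, called the combined list here, whose making is not stated. A peak is a stretch of the genome that the caller marked as a binding site, and no list for an input library was analysed here. Whole larvae were used, so a site bound in a few cells and a site bound weakly in many cannot be told apart. Whether the replicates were separate cultures is not given in the labels, so their spread may be technical, and the lists hold no read counts, which leaves the depth unknown.

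LIN-61 carries MBT repeats, folds that recognise methylated lysine, and it binds histone H3 methylated at lysine 9. It is one of the synthetic multivulva genes, chromatin repressors whose combined loss gives extra vulva-like tissue in the worm. Methylation of this lysine is richest on the chromosome arms, where repeats and transposon remains are common, and it helps to hold arms at the nuclear periphery.

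LIN-61 peaks were frequent on the right arm of III and mostly of middling strength. The combined list had 247 peaks per Mb of the arm. The replicate lists had 209 (replicate 1) and 175 (replicate 2), with a mean of 192 ± 24.0 (SD, n = 2). Combined peaks covered 15.8% of its bases, replicate 1 peaks 12.9% and replicate 2 peaks 8.28%, with a replicate mean of 10.6% ± 3.28 (SD, n = 2). Among the 10 autosome arms it came 3rd by density in the combined list and 4th in each replicate, and 4th by covered bases in all 3 lists.

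The arm lay between the other parts of its own chromosome in each list. Against the centre of III, its density was 2.64 times as high in the combined list, 2.81 times in replicate 1 and 3.09 times in replicate 2. Against the left arm of III, it was 0.84 times as high in the combined list, 0.76 times in replicate 1 and 0.71 times in replicate 2. Between replicates the SD was 0.20 for the ratio to the centre and 0.037 for the ratio to the left arm (n = 2). The combined ratio to the left arm lay above both replicate values, so this SD does not describe the spread among the 3 lists. When peaks separated by at most 1 kb were joined, the ratio to the left arm was 1.03 in the combined list, with 543 tracts on the right arm and 527 on the left. Replicate 1 had 487 such tracts on the right arm and 483 on the left, and replicate 2 had 455 and 486. The order of the arms by count thus depended on joining in the combined list and in replicate 1, while in replicate 2 the right arm stayed lower. By covered bases the right arm had 0.72 times the share of the left arm in the combined list, 0.66 times in replicate 1 and 0.61 times in replicate 2. No test was made of these ratios, since 1 arm of 1 chromosome gives no replication beyond the 2 libraries.

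**Figure D1:**
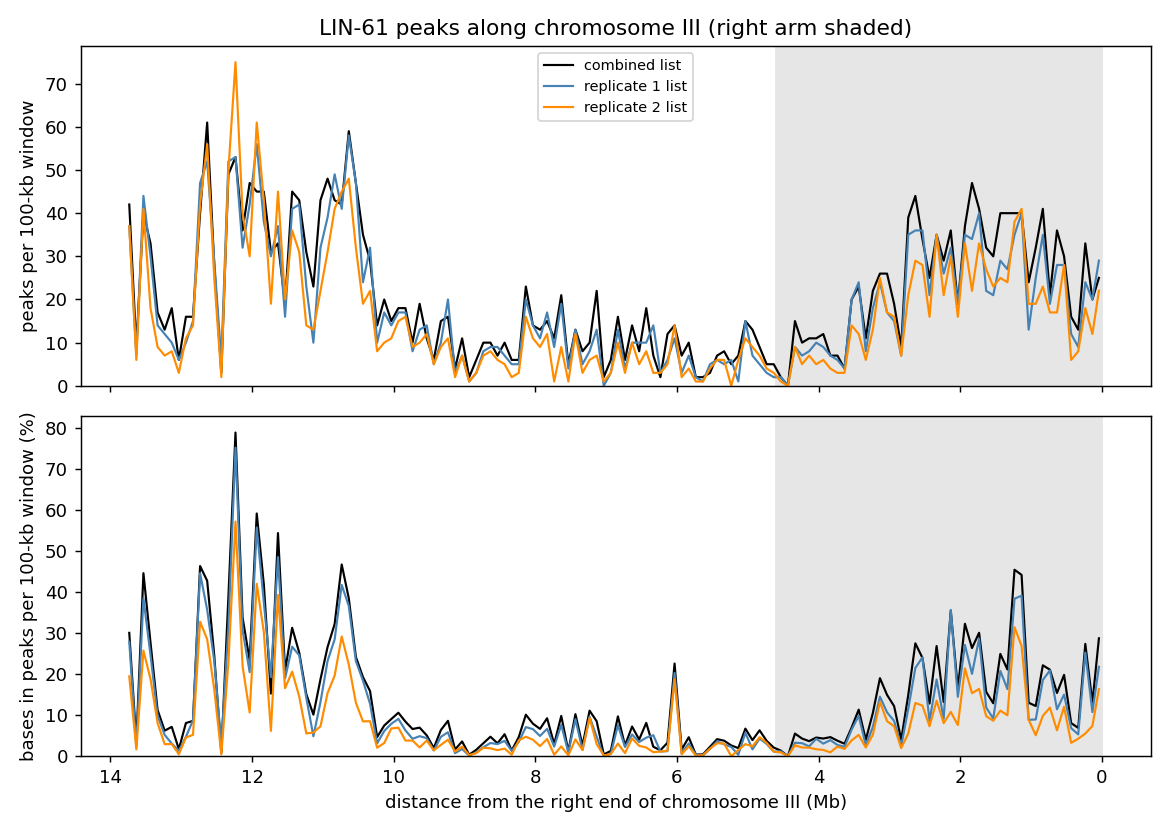
Number of LIN-61 peaks (top) and share of bases in peaks in percent (bottom) per 100-kb window along chromosome III, against the distance from its right end in Mb, for the combined list and the lists of replicates 1 and 2. On the shaded right arm, whose 46 windows reach at most 47 combined peaks, all 3 curves stay low near the centre and climb outwards. They are low again from 13300001 to 13500000, before the chromosome end.

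Strong peaks were a small share of the arm's many peaks, though their number per Mb was near the middle of the autosome arms. The score given to each peak by the authors' caller was used to rank peaks within a list. The median right-arm score, 8.61 in the combined list, was close to that of the whole list, 8.58, but a smaller share stood at the top of the range. In replicate 1 the arm's median was 8.09, against 7.89 for the list, and in replicate 2 it was 7.17, against 7.68. Of 1134 arm peaks, 71 (6.26%, 95% Wilson interval 4.99 to 7.82) were in the top 10% of the list, a limit that 10.1% of all combined peaks met. On the left arm of III it was 317 of 1350 (23.5%, 21.3 to 25.8), and in the centre of III 28 of 430 (6.51%, 4.54 to 9.25). Per Mb the right arm had 15.5 such peaks, against 69.0 on the left arm and 6.09 in the centre of III. By this number it came 6th of the 10 autosome arms in the combined list, 6th in replicate 1 and 7th in replicate 2. The Wilson intervals here and below cover counting error only and treat neighbouring peaks as independent.

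The same low share stood in each replicate, ranked by its own scores. In replicate 1, 51 of 960 right-arm peaks (5.31%, 4.06 to 6.92) were in the top 10%, against 302 of 1258 on the left arm (24.0%). In replicate 2 it was 46 of 804 (5.72%, 4.32 to 7.55), against 241 of 1132 on the left arm (21.3%). In each of the 3 lists the right arm of III came 8th of the 10 autosome arms by this share, with the left arms of I and V below it. Of the top 5% of the combined list, 24 of 690 peaks (3.48%) lay on the right arm, which holds 8.30% of the list. In replicate 1 it was 16 of 588 (2.72%, against 8.18% of the list) and in replicate 2 23 of 472 (4.87%, against 8.52%). The top 1% rests on few peaks, with 2 of 137 on the arm among combined peaks (1.46%), 4 of 121 in replicate 1 (3.31%) and 3 of 95 in replicate 2 (3.16%).

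**Figure D2:**
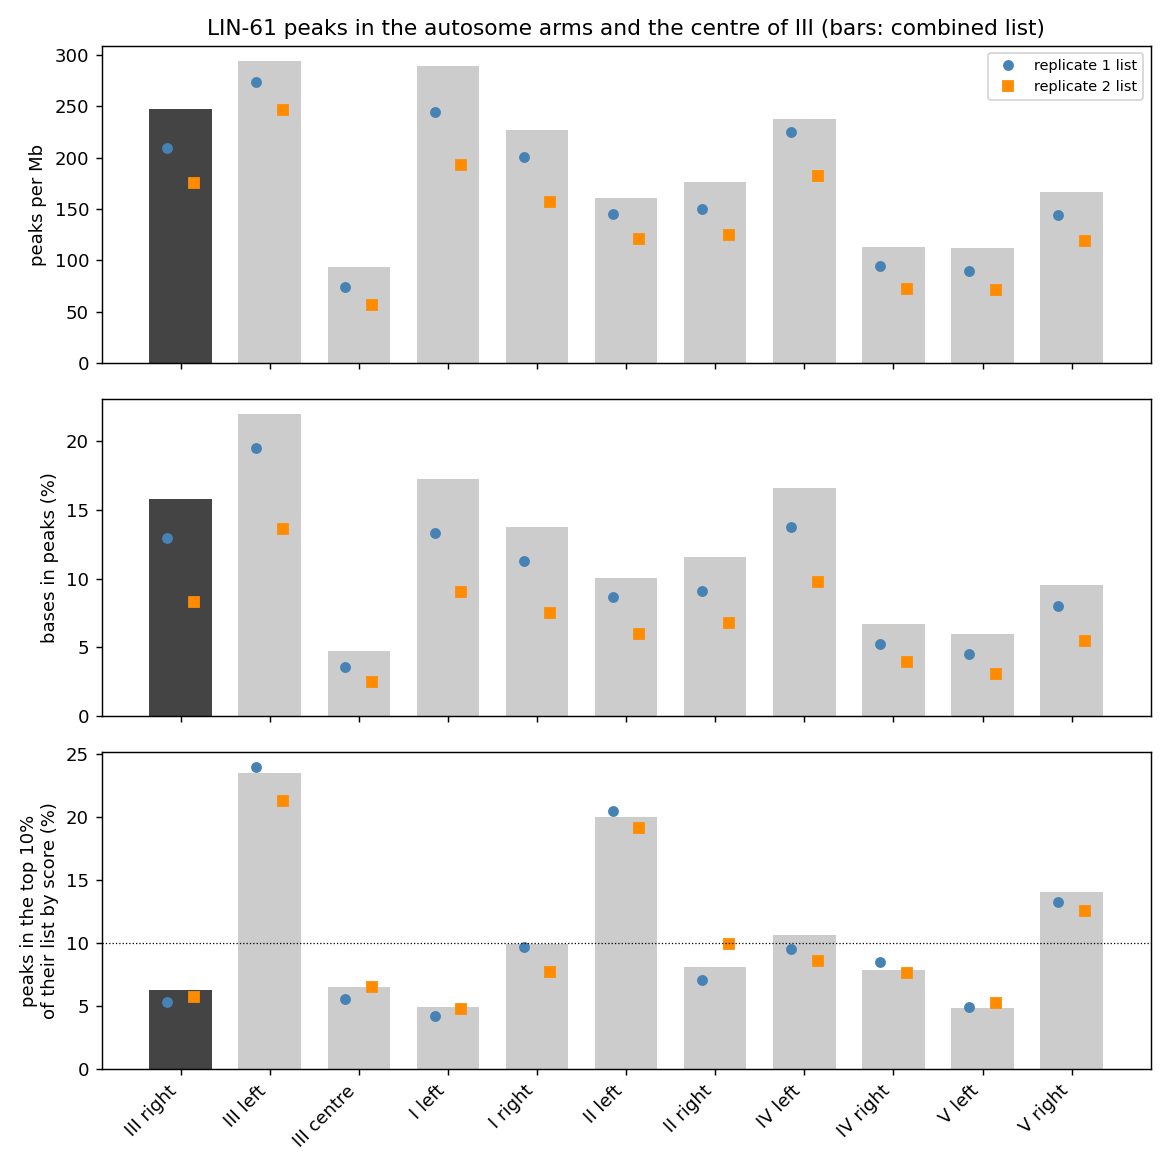
Peaks per Mb, share of bases in peaks and share of peaks in the top 10% of their list by score, for the right arm of III (dark bar), the left arm and centre of III and the other autosome arms; bars give the combined list, circles replicate 1 and squares replicate 2, and the dotted line marks 10%. The right arm of III is among the denser arms with 247 peaks per Mb, while 6.26% of its peaks are in the top 10%, close to the 6.51% of the centre of III. Per Mb the arm has more such peaks than the centre, 15.5 against 6.09 in the combined list (not drawn).

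Within the arm, peaks became dense only some way out from the centre. The arm was divided into 10 segments of 459 kb, numbered from the centre outwards. Segment 1 held 34 combined peaks (74.0 per Mb) and segment 2 held 41 (89.2 per Mb), both under the 93.6 per Mb of the centre of III. In replicate 2 both were also under the centre (41.4 and 45.7 against 56.6), whereas in replicate 1 segment 2 was slightly above it (47.9 and 78.4 against 74.4). Segment 3 had 144 combined peaks per Mb and segment 4 had 229. From segment 5 to segment 9 the density stayed between 303 and 392 per Mb, with the highest value in segment 7, and it was 229 per Mb in segment 10 at the chromosome end. The inner 2 segments together held 75 of the 1134 members (6.61%).

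The replicates followed the same course. In replicate 1 the density reached 313 peaks per Mb in segment 5, and it was 202 in segment 10. In replicate 2 it was 255 in segment 5, reached 287 in segment 8 and was 141 in segment 10. Covered bases also changed along the arm, from 2.86% in segment 1 to 28.1% in segment 8 of the combined list, from 1.90% to 23.2% in replicate 1 and from 1.54% to 17.3% in replicate 2. Segment 8 was the highest by covered bases in all 3 lists.

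**Figure D3:**
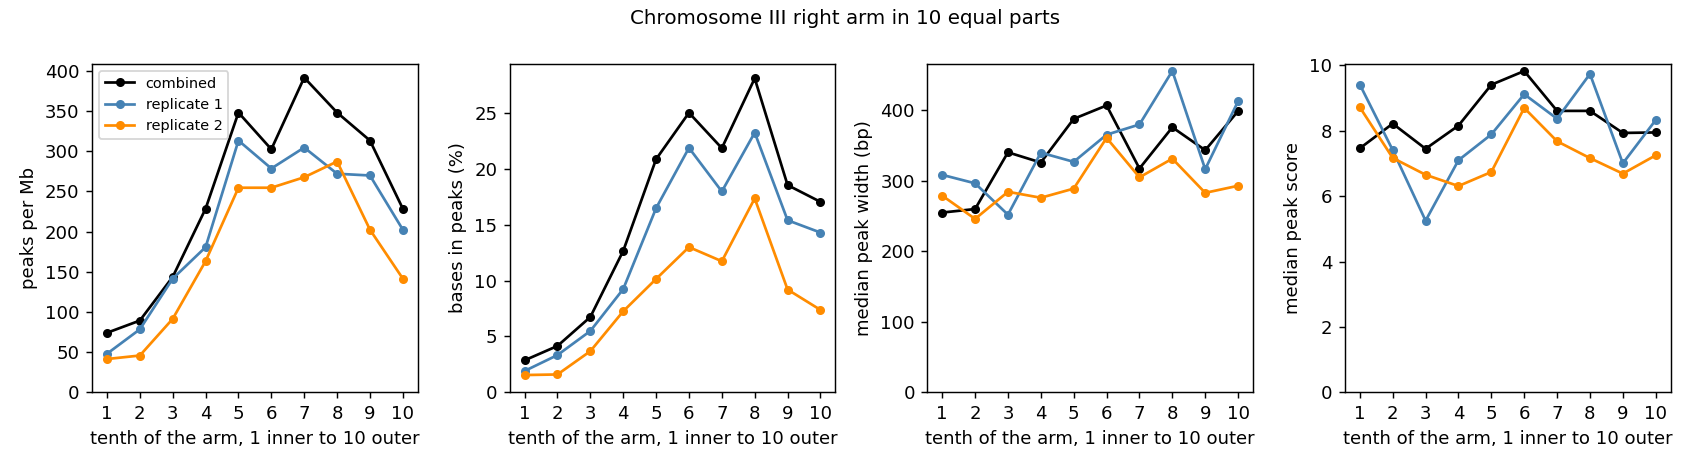
Peaks per Mb, bases in peaks in percent, median peak width in bp and median peak score in 10 equal segments of the right arm of III, from 1 next to the centre to 10 at the chromosome end, for the combined list and both replicates. Density in the combined list reaches 348 per Mb by segment 5, while the median score stays between 7.45 and 9.83.

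The outer 50% of the arm therefore carried most of the peaks. It held 728 combined peaks (64.2%, 95% Wilson interval 61.4 to 66.9), 610 in replicate 1 (63.5%) and 530 in replicate 2 (65.9%). Covered bases were 22.1% in the outer and 9.45% in the inner 50% of the arm in the combined list, 18.6% and 7.28% in replicate 1, and 11.7% and 4.84% in replicate 2. Typical peaks were somewhat stronger and wider in the outer 50% in each list. The median score was 8.61 in the outer and 8.54 in the inner 50% in the combined list, 8.37 and 7.41 in replicate 1, and 7.54 and 6.72 in replicate 2. The median width of outer peaks was 360.5 bp in the combined list, against 329.5 bp for inner peaks, with 387 bp against 323 bp in replicate 1 and 308 bp against 278 bp in replicate 2. In the combined list the median scores were nearly equal. Between replicates the arm's median had an SD of 0.65 for score and 38.9 bp for width (n = 2). That SD describes the level of the lists and not the spread of the outer to inner differences, of which no test was made. Of the 10 autosome arms, outer shares in the combined list ranged from 51.8% on the left arm of III to almost 77% on the right arm of V, and the right arm of III came 4th. The outer share of the left arm of III was 53.7% in replicate 1 and 58.4% in replicate 2, below that of the right arm in each list.

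The inner stretch also held the longest spaces without a peak. No peak of any of the 3 lists fell between 9237757 and 9408271, a gap of 171 kb, or between 9949702 and 10051492, a gap of 102 kb. The 100-kb window from 9300001 to 9400000 lies inside the first gap and was the only one of the 46 windows of the arm with no peak, in each list. The third longest space of the combined list, 51.9 kb from 10464409 to 10516356, contained 1 replicate 1 peak. In replicate 1 the third longest was an outer one, 72.0 kb from 12743198 to 12815200, although replicate 2 had 6 peaks touching it and the combined list 8. Between neighbouring members of the combined list the median gap was 920 bp, against 605 bp on the left arm and 1833 bp in the centre of III.

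Few members lacked another peak within 10 kb, and rows of peaks held a smaller share than on the left arm. Members of the combined list with no other peak within 10 kb numbered 12 (1.06%) on the right arm, 18 (1.33%) on the left arm and 38 (8.84%) in the centre of III. In the combined list the arms of the other autosomes ranged from 1.45% on the left arm of I to 8.94% on the right arm of IV. The order of the arms of III was the other way round in replicate 2, with 2.86% on the right and 2.21% on the left arm. The shares in replicate 1 were both 1.35%. Chaining members over gaps of at most 1 kb gave 543 tracts, of which 312 were single peaks. These single peaks made up 27.5% of the members, against 19.3% on the left arm. Tracts of at least 5 peaks numbered 44 and together held 29.9% of the members. On the left arm, tracts of at least 5 peaks held 43.6% of the peaks. In the centre they held 13.7%. In replicate 1, 41 such tracts held 30.4% of the right-arm peaks, against 44.2% on the left arm. In replicate 2, 25 such tracts held 19.2%, against 41.4% on the left arm.

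The rule used position only, so the limit at 9189133 cuts a sparse stretch and not a visible border. The 3 combined peaks just inside it lay at 9228232 to 9228403 (score 4.51), 9236559 to 9237756 (29.35) and 9408272 to 9408832 (28.93). The 3 just outside it lay at 9110193 to 9111466 (30.29), 9125330 to 9125652 (33.96) and 9161079 to 9161234 (2.67). At the other end, the last 10 kb of the chromosome held 2 combined peaks, 3 in replicate 1 and none in replicate 2. The combined peak nearest the end, 13779132 to 13779315, had a score of 5.74, and the strongest combined peak of the last 100 kb had 52.88. In that last 100 kb the density was 290 per Mb (combined), 320 (replicate 1) and 240 (replicate 2).

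Most right-arm peaks were narrow, and the wide ones carried much of the covered length. The median width was 350 bp in the combined list (quartiles 219 and 681 bp), 352 bp in replicate 1 and 297 bp in replicate 2. Peaks under 200 bp made up 19.9% of the members, and those from 200 bp to under 500 bp 44.5%, close to the whole list with 21.1% and 45.7%. The 59 members of 2 kb or more (5.20%) held 30.4% of the summed width. In the whole combined list 4.57% were as wide, and on the left arm of III 7.56%. Of these 59 wide members, 47 lay in the outer 50% of the arm and 12 in the inner 50%. These values depended on the list. In replicate 1, 43 arm peaks were of 2 kb or more (4.48%, against 3.88% of the whole list) and held 25.9% of the summed width. In replicate 2 it was 14 (1.74%, against 2.26% of the whole list), with 12.6% of the summed width, so that the arm was there below the whole list.

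Overlap with the replicate lists was near the level of the whole list. A combined peak counted as overlapping a replicate when at least 1 bp was shared. On the right arm 516 of 1134 members (45.5%, 95% Wilson interval 42.6 to 48.4) were found in both replicates by this criterion, against 45.3% of all combined peaks. Another 312 (27.5%) overlapped replicate 1 only and 79 (6.97%) replicate 2 only. The other 227 (20.0%) overlapped neither, against 20.3% of all combined peaks. On the left arm of III the share with both was higher, at 55.6% (53.0 to 58.3), and in the centre it was lower, at 37.4% (33.0 to 42.1).

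Overlap went with score and width on the arm. All 114 members in the highest of 10 equal score groups, from 33.15 to 126.22, overlapped both replicates. In the 5th group, with scores of 8.61 to 11.1, 44.2% did so, and in the lowest group, from 1.32 to 3.21, 0.885% did. Of members under 200 bp, 0.442% overlapped both replicates, against 93.2% of those of 2 kb or more. The medians were 18.79 for score and 674.5 bp for width among members with both replicates. Among those with neither they were 3.77 and 180 bp. The whole combined list showed the same order, with medians of 20.39 and 645.5 bp for both replicates and 3.93 and 186 bp for neither. The parts played by score and by width in this overlap were not separated.

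**Figure D4:**
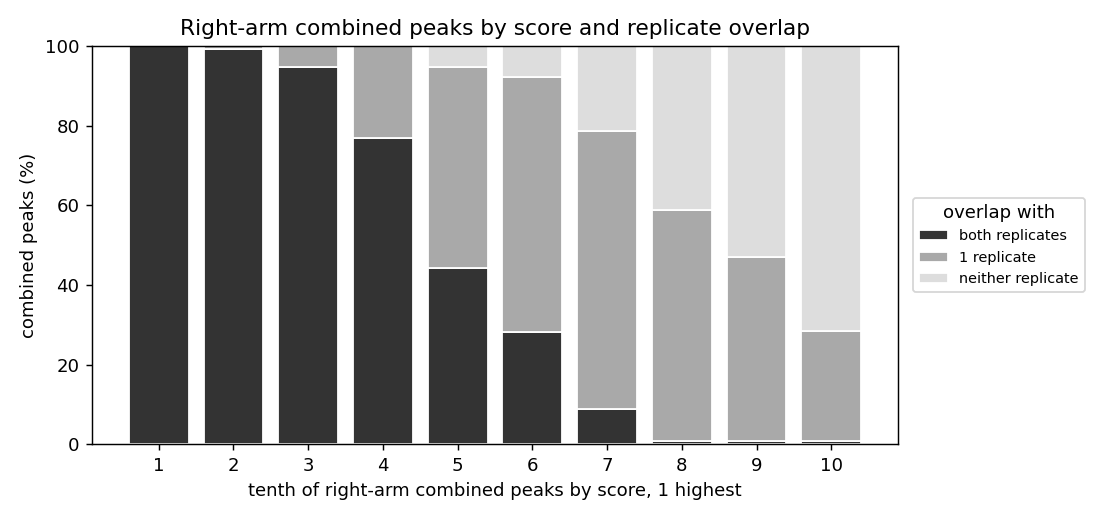
Share in percent of right-arm combined peaks that overlap both replicates, 1 replicate or neither, in 10 equal groups by score from 1 (highest) to 10 (lowest). The highest group has 100% with both replicates and the 5th 44.2%, while in the lowest 71.7% overlap neither.

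Compared directly, 586 of 960 right-arm peaks of replicate 1 (61.0%, 57.9 to 64.1) had a replicate 2 partner, against 59.1% of all replicate 1 peaks. In replicate 2, 703 of 804 (87.4%, 85.0 to 89.6) had a replicate 1 partner, against 85.0% of all replicate 2 peaks. When peaks were matched one to one by their overlap, giving 562 pairs, scores of the replicates had a Spearman correlation of 0.68 and a Pearson correlation of 0.76. On the left arm of III the values were 0.83 and 0.85 over 801 pairs. The points share their libraries and, in part, their peak widths, so these are descriptions of the ranking of sites. In 411 of the 562 pairs (73.1%) the replicate 1 peak was the wider one, with a median width of 528 bp against 358.5 bp for the replicate 2 peak. The same share over all pairs of the series is not given here. Over the whole lists, peaks with a partner, not matched one to one, were also wider in replicate 1. Their median width was 475 bp in replicate 1 and 338 bp in replicate 2.

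The strongest members of the arm ranked from 40 to 263 by score in the whole combined list. The 10 combined peaks with the highest score and both replicates ranged in score from 85.52 to 126.22 and in width from 565 to 6325 bp, and 2 of them exceeded the limit for the top 1% of the series. First was the site on chromosome III at 11980060 to 11981725, 1666 bp wide with a score of 126.22. It was matched by a single peak in each replicate, ranked 3 on the arm in replicate 1 (score 136.51) and 2 in replicate 2 (95.25). Second was 13292916 to 13296577, 3662 bp wide with a score of 118.84, where the arm's highest replicate 1 peak (173.64) and its 3rd highest replicate 2 peak (87.41) were found. It lies 0.489 Mb from the chromosome end, in segment 9. The third was 11160012 to 11161432, 1421 bp wide with a score of 100.22, ranked 6 on the arm in both replicates. The replicate peaks at each of the first 3 sites stood near the top of the arm in both libraries. These sites were picked by combined score and overlap with both replicates, and the making of the combined list is not stated. Their replicate ranks are therefore no separate measure of how alike the libraries are.

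The 4th site did not rank alike in the replicates. At 10631616 to 10634355 (2740 bp, combined score 94.1), replicate 2 had its highest right-arm peak, with a score of 99.47. Replicate 1 had 2 peaks there, the better of which scored 16.21 and ranked 229 on the arm. The next sites were 12340247 to 12343376 (92.32), 11463624 to 11464188 (91.47), 11932782 to 11939106 (90.51) and 11372278 to 11372955 (89.76). The sparse inner stretch also held 1 of the 10, at 9533512 to 9535083, with a score of 86.27, ranked 4 in replicate 1 and 15 in replicate 2. The last was 11958560 to 11960080 (85.52).

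No member without a replicate peak scored above 9. That score was reached at 10848829 to 10849021 and at 12773785 to 12773963. The next 3, with 8.61 each, lay at 11039202 to 11039393, 12779018 to 12779199 and 12488267 to 12488430. All 5 were 164 to 193 bp wide. In the other direction, 42 right-arm peaks of replicate 1 (4.38%) overlapped no combined peak, against 7.43% of all replicate 1 peaks, and none of the 42 had a partner in replicate 2. In replicate 2 it was 8 right-arm peaks (0.995%), against 1.66% of the list.

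The 2 widest combined peaks of the arm both lay in segment 8. The widest member was a peak of 15722 bp at 12544426 to 12560147, with a score of 68.63. Replicate 1 had 4 peaks over it, the longest of 11633 bp, and replicate 2 had 4, the longest of 5729 bp, and they covered 98.0% and 94.1% of it. The second widest was 12609090 to 12617876, 8787 bp wide with a score of 76.42. It was covered to 95.1% by 2 replicate 1 peaks, the longest of 5380 bp, and to 94.2% by 3 replicate 2 peaks, the longest of 5195 bp. Around them lay the tracts with the most covered bases, 12540199 to 12560908 (20.7 kb, 92.1% in combined peaks) and 12598435 to 12619145 (20.7 kb, 90.7%). The 100-kb windows from 12500001 to 12600000 and from 12600001 to 12700000, which together contain both tracts, had the highest covered shares of the arm, 45.4% and 44.1% in the combined list. They took the first 2 ranks on the arm in both replicates as well, with 38.3% and 39.1% in replicate 1 and 31.4% and 26.8% in replicate 2.

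The next 3 members by width were covered less fully in replicate 2 than in replicate 1. The third widest member, 11678593 to 11685252 (6660 bp, score 25.42), was 99.9% covered by 1 replicate 1 peak, and 20.0% covered by 5 replicate 2 peaks, the longest of 370 bp. The 4th, 11429480 to 11436096 (6617 bp, score 10.05), was covered to 82.9% by 6 peaks in replicate 1 and to 35.4% by 7 in replicate 2. The 5th, 13063609 to 13070112 (6504 bp, score 30.42), was covered to 99.5% by 1 peak in replicate 1 and to 73.1% by 5 in replicate 2. Of all 59 wide members, 34 (57.6%) were split into at least 2 peaks in replicate 1 and 48 (81.4%) in replicate 2. For all wide combined peaks these shares were 53.9% and 75.2%, and on the left arm of III 50.0% and 86.3%. Such splitting was thus not particular to the right arm. Over all 59, replicate 1 peaks covered 91.9% of the bases and replicate 2 peaks 64.5%. For the wide peaks of the whole combined list the shares were 91.9% and 75.3%, and on the left arm of III 94.4% and 77.8%.

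The tracts showed the same difference between the libraries. Tract 3, 11658565 to 11675740, was covered to 92.3% by replicate 1 peaks and to 24.7% by replicate 2 peaks. Tract 4, 13584219 to 13600141, had 15 combined peaks with a highest score of 11.31. Replicate 1 covered 91.0% of it with 7 peaks and replicate 2 3.18% with 2. Tract 5, 12333482 to 12347961, was covered to 71.9% in replicate 1 and to 38.7% in replicate 2. Of the 16 tracts of at least 10 kb, 15 had more bases in peaks in replicate 1 than in replicate 2, with medians of 74.3% and 40.3%, and 15 lay in the outer 50% of the arm. Over the arm as a whole, covered bases in replicate 2 were 0.64 times those in replicate 1, the lowest such ratio of the 10 autosome arms, which ranged up to 0.76. The number of peaks in replicate 2 was 0.84 times that in replicate 1, the second highest of the arms. Whether library depth had a part in this was not tested.

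**Figure D5:**
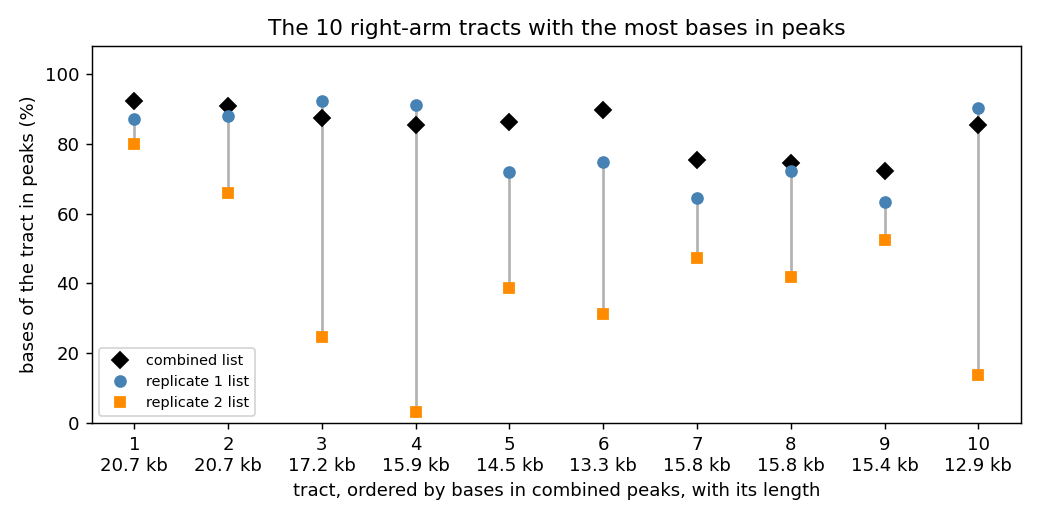
Share of bases in peaks, in percent, for the 10 right-arm tracts with the most bases in combined peaks, in order, with tract length in kb under each; diamonds give the combined list, circles replicate 1 and squares replicate 2. Tracts 1 and 2 are covered to at least 65.9% in every list, while tracts 3, 4 and 10 are covered to over 90% in replicate 1 and to at most 24.7% in replicate 2.

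Window by window the replicates ranked the arm in a similar order, with exceptions among the fuller windows. Over its 46 windows, the covered share in replicate 1 and in replicate 2 had a Spearman correlation of 0.91 and a Pearson correlation of 0.89, as a description, since windows share libraries and neighbours. Of the 5 windows with the most covered bases, 4 were the same in both replicates. After the pair at 12500001 to 12700000, the combined list had 11600001 to 11700000 (35.4%), 11800001 to 11900000 (32.2%) and 12000001 to 12100000 (30.0%). The first of these, which holds tract 3, ranked 3 in replicate 1 with 35.6% and 14 in replicate 2 with 10.8%. The last 2 ranked 5 and 4 in replicate 1, and 3 and 4 in replicate 2. The window from 13500001 to 13600000 ranked 6 in replicate 1 with 25.2% and 28 in replicate 2 with 5.52%.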

How the data were processed

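The authors deposited 3 peak lists on build WormBase WS220, 1 per ChIP library and 1 for the series, with peaks called by MACS, per the file headers and columns. The MACS version, threshold, control, aligner and the making of the series list could not be learned from the sources used here. The quantity behind the deposited score of each peak is not named in the files; the score was used to rank peaks within a list and, over pairs, in correlations. Libraries were grouped by title. Positions count from 1. Each chromosome was taken to end where its last peak ends, and arms were the outer parts that together with an equal centre make 3 per chromosome, and 2 mitochondrial peaks of replicate 1 were set aside. Wilson intervals are at 95%. Named sites follow a rule: the 10 highest scores with both replicates, the 5 widest, the 5 highest with neither, the 5 largest tracts, the 5 fullest windows, the 3 longest gaps and the 3 peaks on each side of the limit. The members, rules and measures were chosen with earlier results of these data known; the tables by segment, by arm and by score were added after the files were read. No test was run. Genes and sequences are not given, as the gene table used here is of another build. Overlap code was tested on simulated data. Alternatives were each replicate list alone, stronger peaks, a narrower arm, merged peaks, covered length and stricter overlap. Python 3.11.15, numpy 2.4.6, pandas 2.3.3, scipy 1.17.1 and matplotlib 3.10.9 were used.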

Additional observations from a re-analysis of the deposited data

How the results depend on the processing

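Of 44 values recomputed under an alternative, 12 moved by less than the replicate spread or the counting interval, 31 moved by more and 1 turned round. With each replicate list alone, density was 175 to 209 peaks per Mb, covered share 8.28% to 12.9%, median width 297 to 352 bp, median score 7.17 to 8.09, the ratio to the centre 2.81 to 3.09, the ratio to the left arm 0.71 to 0.76 and the outer share 63.5% to 65.9%. Among peaks at or above the list's median score, density was 125 per Mb, covered share 12.2%, median width 633 bp, median score 17.76, the ratio to the centre 3.33, the ratio to the left arm 0.68 and the share with both replicates 82.5%. With the outer 25% of the chromosome as the arm, density was 298 per Mb, covered share 19.6% and the ratio to the centre 2.86. With peaks within 1 kb merged, density was 118 per Mb, median width 761 bp, the ratio to the centre 2.18 and the outer share 61.5%. The ratio to the left arm turned to 1.03. Joining removes gaps of at most 1 kb, which made up 61.0% of the gaps on the left arm and 52.2% on the right arm in the combined list. Why close gaps were more common on the left arm was not tested. By covered length, the ratios were 3.33 to the centre and 0.72 to the left arm and the outer share 70.1%. With 50% of a peak covered, the share of members with both replicates was 34.0%, and partners were found for 49.5% of replicate 1 and 84.1% of replicate 2 peaks. With 50% reciprocal overlap, it was 40.2% and 48.0%. Stricter overlap lowers such shares by construction, and a score limit lowers density and covered share by construction. The share with both replicates rose under the score limit. Other causes were not tested. No paired analysis was possible because values of ChIP and input would be needed, and input peaks were not analysed here. Depth is unknown.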
